A study of Mus musculus with 60 samples.

Results

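Liver RNA was compared 20 h after partial hepatectomy (PHx, surgical removal of most of the liver) and 20 h after a sham operation, both performed in the morning. The members are the 3 PHx and 3 sham libraries whose labels give the morning operation and 20 h, 6 of the 60 libraries of the series, and all genes were examined in them. The labels give 3 mice per group. All mice were C57BL/6 males of 8 weeks, operated at 8 to 9 am, so that these livers were taken at 4 to 5 am. The labels name no transgene, gene deletion or drug for either group. The series took livers every 4 h from 4 to 32 h after a morning operation, in 16 groups of 3 mice (48 libraries), and the 20 h libraries share their library ID series with those of 8, 12 and 16 h.

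The liver replaces lost mass mainly through hepatocytes that leave quiescence and divide in near synchrony. Cytokines such as IL-6 and ligands of the EGF and MET receptors prime them, cyclin D1 carries them through G1, E2F factors switch on the genes of DNA replication, and a later set of genes drives G2 and mitosis. Meanwhile the remaining tissue makes acute phase proteins and must keep up bile acid, lipid, glucose and nitrogen metabolism for the whole body.

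Levels are log2(value + 1) as the authors deposited them, where the unit of the value is not stated, and changes are differences of these levels, PHx minus sham, with their standard error (SE). Changes of genes with low values come out too small on this scale. Values of single libraries are given in the order of replicates 1, 2 and 3. A gene is said to have risen or fallen where its Benjamini-Hochberg adjusted p was under 0.05 in limma, fitted on all 48 libraries of the time course with 1 mean per group. Of 14620 genes, the 12957 that reached a value of 1 in 3 or more libraries were tested. The SE therefore uses a spread shared over all groups, not that of these 6 libraries alone.

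At 20 h limma called 2379 of 12957 genes (18.4%), of which 1618 rose (12.5%) and 761 fell (5.87%). Counts of calls in each gene list are to be read beside these shares. The values of the 3 PHx and 3 sham libraries did not overlap in 34.7% of the genes tested (all PHx values above sham in 24.6%, all below in 10.2%). Over all genes the median change came to 0.13, and changes are to be read relative to it. With each library divided by a median-ratio factor the median change was 0.02, and 927 genes (7.15%) rose and 1118 (8.63%) fell. With quantile normalization 965 (7.45%) rose and 1095 (8.45%) fell. The 10 most abundant genes held 24.6 to 25.7% of the linear sum in the PHx libraries and 29.8 to 32.1% in sham. Hepatocyte markers dominated all 6 livers, with a summed linear value of 62252 to 72928 in PHx and 67313 to 73834 in sham. In bulk liver RNA, fewer cells of a type and less RNA per cell cannot be told apart.

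PHx replicate 2 stood apart from the other PHx libraries. Its correlation across genes was 0.960 with PHx replicate 1 and 0.956 with PHx replicate 3, against 0.983 between those libraries and 0.979 to 0.984 among the sham libraries. Of the other 5 libraries of 20 h it was closest to sham replicate 2 (0.961), the sham library with the same number. That margin over PHx replicate 1 was small, and the order turned with each gene centred on its mean over the 48 libraries. PHx replicate 2 then correlated at 0.16 and 0.13 with PHx replicates 1 and 3, and at 0.04 with sham replicate 2. PHx replicate 2 was at least 1 log2 unit above both other PHx libraries in 561 genes and below both in 202. The same count was 56 and 58 for PHx replicate 1, and 67 and 42 for PHx replicate 3. Of the 126 genes in which PHx replicate 2 was at least 2 units above both, 14 belong to the G2 and mitosis list. Its linear sum (1.05 M) and its number of genes at 0 (1096) were close to those of the other PHx libraries (1.05 and 1.07 M, 1113 and 1197 genes). Its median-ratio factor (1.136) was the highest of the 20 h libraries, with 0.999 and 1.056 in PHx replicates 1 and 3. The counts above use levels as deposited, without this factor. Over all genes the median difference of PHx replicate 2 from the sham mean was 0.21, against 0.02 and 0.12 for PHx replicates 1 and 3. What set it apart, and whether every library carries the label of its own liver, was not tested. Without it limma called 2213 genes, 1278 higher and 935 lower, and results that rest on it are given with and without it.

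Entry into the cell cycle was read library by library, in 6 lists that follow its course. Of 134 genes tested in these lists, 25 rose and 4 fell, against 12.5% and 5.87% of all genes. Without PHx replicate 2, 7 rose and 6 fell, while 1278 and 935 of all 12957 genes did. With the 6 libraries fitted alone 6 rose and 2 fell, while 838 and 384 of all 12957 genes did. In both of these settings the lists rose less often than all genes. The early step, cyclin D1, was shared by all 3 PHx livers, whereas genes of replication and mitosis lay above sham most often in PHx replicate 2.

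Ccnd1, the cyclin that starts passage through G1, stood at 4.82, 5.33 and 5.03 in PHx and at 2.58, 3.05 and 2.21 in sham. All 3 PHx livers lay well above all sham livers, and Ccnd1 rose by 2.45 ± 0.29 (adjusted p = 2.2e-07, limma), and by 2.31 without PHx replicate 2. Ccne1, the cyclin that activates CDK2 at the G1/S border, stood at 2.38, 4.53 and 2.95 in PHx and 1.21, 1.82 and 0.75 in sham. The groups did not overlap, but PHx replicate 2 was far above the others. Ccne1 rose by 2.02 ± 0.50 (adjusted p = 0.0038, limma), a call lost without PHx replicate 2 (1.40) and with the 6 libraries alone. Its paralog Ccne2 was at 1.63, 4.85 and 1.28 in PHx and 2.14, 2.25 and 1.05 in sham, so that PHx replicates 1 and 3 lay within the sham range. Ccne2 did not pass the test (0.77 ± 0.64), and its sign turned without PHx replicate 2 (-0.36). Cdkn1a, which encodes the CDK inhibitor p21, stood at 6.08, 5.18 and 6.03 in PHx and 1.89, 4.57 and 3.85 in sham. In contrast to the cyclins, p21 was lowest in PHx replicate 2 among the PHx livers. It rose by 2.33 ± 0.59 (adjusted p = 0.0048, limma), a call lost without sham replicate 1 (1.55) and with the 6 libraries alone. In the list of G1 cyclins, kinases and inhibitors these 3 genes rose among 19 tested, none fell, and the list median was 0.36 beside 0.13 for all genes. PHx replicates 1 and 3 lay above all sham libraries in 7 of the 19 genes each, and PHx replicate 2 in 16. Over all genes tested, the shares above all sham libraries were 36.9, 53.6 and 44.4% for PHx replicates 1, 2 and 3.

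**Figure D1:**
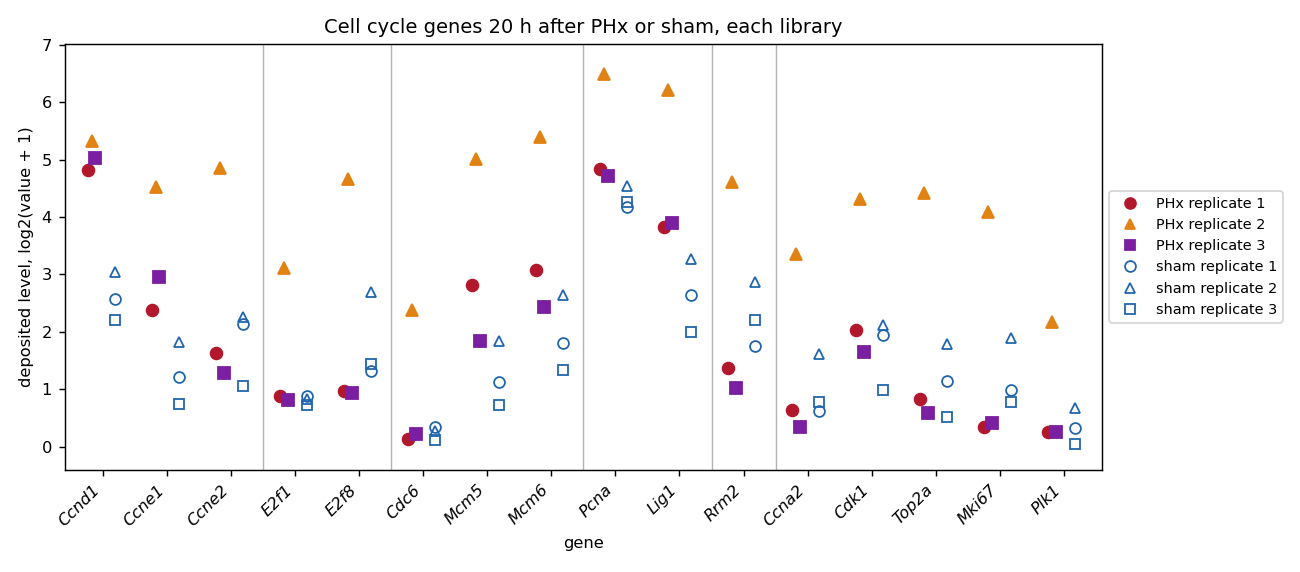
Log2 level (value + 1) of 16 cell cycle genes in each of the 3 PHx and 3 sham libraries of 20 h, ordered from G1 to mitosis. Each symbol is 1 library. Ccnd1 was high in all 3 PHx libraries, while in E2f1, Cdc6 and the genes from Rrm2 to Plk1 PHx replicate 2 alone stood clearly above the sham libraries.

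The E2F family binds replication gene promoters, repressing them with RB proteins in quiescence and activating them in late G1. Of 15 E2F and RB family genes tested, 4 rose and none fell, with a median of 0.46. E2f3, an activator, stood at 2.63, 2.55 and 2.67 in PHx and 1.86, 1.97 and 1.70 in sham. The 3 PHx livers were alike and all above sham, and E2f3 rose by 0.77 ± 0.19 (adjusted p = 0.0040, limma), and by 0.80 without PHx replicate 2. E2f1, an activator that is itself an E2F target, was at 0.89, 3.11 and 0.82 in PHx and 0.89, 0.83 and 0.72 in sham. E2f8, an atypical repressor made in S phase, was at 0.97, 4.66 and 0.94 in PHx and 1.32, 2.69 and 1.44 in sham. For both, PHx replicate 2 alone was above the sham range, and neither passed the test (0.79 ± 0.42 and 0.37 ± 0.66, and 0.04 and -0.86 without PHx replicate 2).

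The replication and mitosis lists differ in a pair of promoter words known from cell cycle genes. The E2F word was searched as TTTCCCGC, TTTCGCGC, TTTGGCGC and TTTGCCGC, and the cell cycle homology region (CHR), bound by the DREAM and B-MYB complexes, as TTTGAA. Both strands were searched in RefSeq promoters (GRCm38.p6, 250 bases before to 50 after the gene start), and matches may overlap. RefSeq gave promoters for 15 of 20 origin licensing genes and 23 of 28 genes of the mitosis list. Of 32851 promoters 744 (2.26%) hold an E2F word and 5878 (17.9%) a CHR word. Of the 17 promoters of the origin licensing list, 9 (52.9%) hold an E2F word and 4 (23.5%) a CHR word. Of the 24 promoters of the G2 and mitosis list, 1 (4.17%) holds an E2F word and 18 (75.0%) a CHR word. The E2F word was also in 8 of 30 promoters (26.7%) of the replication fork list. It was in 2 of 17 (11.8%) of the G1 list and 1 of 23 (4.35%) of the nucleotide supply list. The E2F and RB family list held each word in 6 of 16 promoters (37.5%). Neither word was found for Ccne1, Pcna and E2f1, and Lig1 had an E2F word in 1 of 3 promoters. Below are the promoters of a pair of helicase genes, of Cdk1, which has both words, and of Mki67, which has the CHR word alone, 5′ to 3′ on the gene's strand, with the words in capitals.
Mcm5, chr8:75109259-75109558, plus strand, E2F words starting 153 and 149 bases upstream of the start on opposite strands and overlapping: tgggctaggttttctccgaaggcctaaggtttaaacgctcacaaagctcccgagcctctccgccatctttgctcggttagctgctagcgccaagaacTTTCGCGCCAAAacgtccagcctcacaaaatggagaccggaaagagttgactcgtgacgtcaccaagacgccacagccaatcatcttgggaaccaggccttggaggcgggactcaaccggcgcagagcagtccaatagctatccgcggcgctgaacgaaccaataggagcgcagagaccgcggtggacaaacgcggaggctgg
Mcm6, chr1:128359656-128359955, minus strand, E2F words 110 and 106 bases upstream on opposite strands and overlapping, and 47 bases upstream: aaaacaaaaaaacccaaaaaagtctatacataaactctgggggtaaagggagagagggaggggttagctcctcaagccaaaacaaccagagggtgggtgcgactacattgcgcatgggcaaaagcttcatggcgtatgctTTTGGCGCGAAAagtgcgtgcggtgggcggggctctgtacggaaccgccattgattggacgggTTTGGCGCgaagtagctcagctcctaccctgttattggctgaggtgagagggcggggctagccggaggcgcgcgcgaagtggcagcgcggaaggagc
Cdk1, chr10:69352863-69353162, minus strand, an E2F word 131 bases upstream and CHR words 71 and 15 bases upstream: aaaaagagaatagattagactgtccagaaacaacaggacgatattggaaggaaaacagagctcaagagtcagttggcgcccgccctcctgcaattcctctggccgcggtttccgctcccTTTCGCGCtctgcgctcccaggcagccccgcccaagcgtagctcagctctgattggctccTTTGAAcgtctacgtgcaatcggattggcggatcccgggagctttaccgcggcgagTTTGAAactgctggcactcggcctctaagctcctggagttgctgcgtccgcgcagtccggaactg
Mki67, chr7:135716330-135716629, minus strand, CHR words 116 and 98 bases upstream: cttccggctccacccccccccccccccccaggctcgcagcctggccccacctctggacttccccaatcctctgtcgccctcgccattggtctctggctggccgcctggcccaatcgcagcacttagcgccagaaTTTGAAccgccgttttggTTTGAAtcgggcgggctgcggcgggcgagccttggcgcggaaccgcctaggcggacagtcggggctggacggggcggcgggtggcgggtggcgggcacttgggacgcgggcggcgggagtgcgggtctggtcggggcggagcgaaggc
A match describes these letters in this window and is not a measured binding site.

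Origins of replication are licensed in G1 by loading the MCM2 to MCM7 helicase. Of 20 origin licensing and firing genes tested 6 rose and 1 fell, with a median of 0.73, and without PHx replicate 2 none rose. Mcm5, with overlapping E2F words in the sequence printed above, stood at 2.82, 5.01 and 1.84 in PHx and 1.13, 1.85 and 0.73 in sham. Mcm6, a further helicase subunit, stood at 3.08, 5.40 and 2.43 in PHx and 1.80, 2.64 and 1.33 in sham. In both genes PHx replicate 2 was highest by more than 2 units, PHx replicate 1 was above all sham livers, and PHx replicate 3 overlapped with sham. Mcm5 rose by 1.99 ± 0.58 (adjusted p = 0.013, limma) and Mcm6 by 1.71 ± 0.60 (adjusted p = 0.040, limma). Without PHx replicate 2 the changes were 1.10 and 0.83 and not called. Both calls were also lost without sham replicate 3 (1.74 and 1.42), that of Mcm6 without sham replicate 1 (1.65) and with median-ratio scaling (1.59), and both with the 6 libraries alone. Mcm4 rose by 1.41 ± 0.36, with 2.05, 3.63 and 1.81 in PHx and 0.90, 1.33 and 1.04 in sham. It did not overlap between groups, and its change without PHx replicate 2 was 0.84 and not called, nor was it called with the 6 libraries alone. Cdc6, the loader of the helicase, was near the floor except in PHx replicate 2 (0.12, 2.38 and 0.21 in PHx, 0.11 to 0.33 in sham), and did not pass the test. Mcm10, which helps to fire licensed origins, went the other way. It stood at 3.06, 4.59 and 2.71 in PHx and 6.46, 5.72 and 5.58 in sham, and fell by 2.47 ± 0.72 (adjusted p = 0.014, limma), also without PHx replicate 2 (-3.04). That call was lost without PHx replicate 1 (-2.27), PHx replicate 3 or sham replicate 1 (-2.20). PHx replicates 1, 2 and 3 were above all sham livers in 12, 19 and 5 of the 20 genes, against 36.9, 53.6 and 44.4% of all genes.

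Genes of the replication fork and of chromatin copying were raised most often of the 6 lists, 9 of 27 rising and none falling, with a median of 0.78. Lig1, which joins Okazaki fragments, stood at 3.83, 6.22 and 3.89 in PHx and 2.64, 3.27 and 1.99 in sham. Pcna, the sliding clamp, stood at 4.83, 6.49 and 4.71 in PHx and 4.17, 4.55 and 4.25 in sham. Rfc2, a subunit of the clamp loader, stood at 4.02, 5.15 and 4.21 in PHx and 3.19, 3.34 and 2.90 in sham. In these genes all PHx livers were above all sham livers, PHx replicates 1 and 3 by less than PHx replicate 2. Lig1 rose by 2.01 ± 0.48, Pcna by 1.02 ± 0.32 and Rfc2 by 1.32 ± 0.26 (adjusted p = 0.0027, 0.021 and 3.8e-04, limma). Without PHx replicate 2, Rfc2 (0.97) kept its call, and Lig1 (1.22) and Pcna (0.45) lost it. Pcna also lost it without sham replicate 1 (0.95) or sham replicate 3 (0.99), and all 3 lost it with the 6 libraries alone. Pold3, a subunit of the lagging-strand polymerase, rose by 1.17 ± 0.25 and by 0.98 without PHx replicate 2, with 3.66, 4.08 and 3.36 in PHx and 2.41 to 2.68 in sham. Rfc2 and Pold3 are the 2 genes of this list still called without PHx replicate 2. PHx replicates 1, 2 and 3 were above all sham livers in 18, 27 and 9 of the 27 genes, so that PHx replicate 2 was above in every gene of the list. Over all genes these shares were 36.9, 53.6 and 44.4%, so that PHx replicate 3 was above less often here than over all genes.

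Nucleotide supply genes went both ways. Of 25 genes tested 3 rose and 3 fell, against 12.5% and 5.87% of all genes, so that rises were no more frequent than over all genes. The median was 0.20 beside 0.13 for all genes. Ctps, the CTP synthetase, stood at 3.35, 3.27 and 2.97 in PHx and 1.54, 2.08 and 1.91 in sham. Its rise of 1.36 ± 0.20 (adjusted p = 9.3e-06, limma) was shared by all 3 PHx livers and was 1.32 without PHx replicate 2. Cad, the enzyme that opens pyrimidine synthesis, rose by 1.24 ± 0.35, with 1.93, 2.63 and 3.01 in PHx and 1.20 to 1.44 in sham. The call of Cad was lost without PHx replicate 3 (1.00) and with the 6 libraries alone. Rrm2, the S phase subunit of ribonucleotide reductase, was at 1.37, 4.62 and 1.01 in PHx and 1.76, 2.86 and 2.20 in sham. All sham livers lay below PHx replicate 2 and above PHx replicates 1 and 3, and the mean did not differ by the test (0.06 ± 0.64). Its sign turned with median-ratio scaling (-0.06). Tk1, the salvage kinase for thymidine, was at 1.00, 3.80 and 1.57 in PHx and 3.82, 3.65 and 3.72 in sham. PHx replicate 2 lay within the sham range and the other PHx livers more than 2 units below it. Tk1 fell by 1.61 ± 0.55 (adjusted p = 0.036, limma), a call lost when any single library other than PHx replicate 2 was left out (-1.04 to -1.65) and with the 6 libraries alone, and its change was -2.45 without PHx replicate 2.

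In the G2 and mitosis list no gene of 28 was called in either direction, with 12.5% and 5.87% of all genes called. PHx replicate 2 was above all sham livers in 28 of the 28 genes, PHx replicate 1 in 1 and PHx replicate 3 in 2. Mki67, the proliferation marker Ki-67, was at 0.33, 4.08 and 0.41 in PHx and 0.98, 1.89 and 0.77 in sham. Cdk1, the mitotic kinase, was at 2.03, 4.31 and 1.65 in PHx and 1.95, 2.12 and 0.99 in sham. Ccna2, the cyclin of S and G2, was at 0.64, 3.35 and 0.34 in PHx and 0.61, 1.62 and 0.77 in sham. These 3 genes, and with them Top2a (0.83, 4.42 and 0.58 in PHx), Foxm1 (0.14, 2.15 and 0.23) and Plk1 (0.25, 2.16 and 0.25), were high in PHx replicate 2 alone. Top2a untangles replicated DNA, Foxm1 is a transcription factor of mitotic genes and Plk1 a mitotic kinase. Their changes, 0.39 ± 0.64 for Mki67 and 0.98 ± 0.80 for Cdk1 among them, did not pass the test (adjusted p = 0.73 and 0.44, limma). Without PHx replicate 2 they were -0.84 for Mki67 and 0.15 for Cdk1. The mean level of the 28 genes was 0.67, 2.88 and 0.60 in PHx and 0.75, 1.45 and 0.52 in sham. Over all 24 sham libraries of the time course this mean ran from 0.32 to 1.73, and in the 3 PHx livers of 24 h from 2.87 to 3.36. PHx replicate 2 thus lay at the lower end of the 24 h range, and PHx replicates 1 and 3 within the sham range. Sham replicate 2 had the highest mean of its group.

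**Figure D2:**
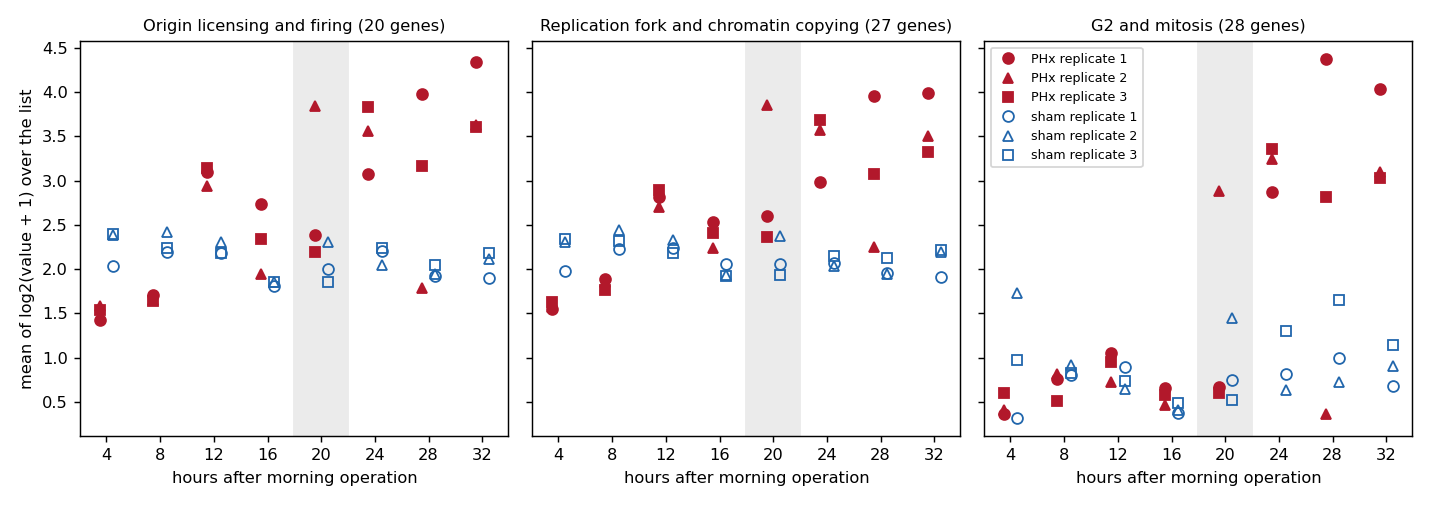
Mean log2 level (value + 1) of 3 cell cycle lists in each library from 4 to 32 h, by hours after the operation, with 20 h shaded. Each symbol is 1 library. In the G2 and mitosis list PHx replicate 2 of 20 h (2.88) lies beside the 24 h PHx livers, and the other 2 PHx livers of 20 h (0.67 and 0.60) beside sham.

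Genes of DNA repair and checkpoint rose in 7 of 18 and fell in none, with a median of 0.86. They divided by liver as the replication lists did, with medians over the sham mean of 0.42, 1.42 and 0.25 in PHx replicates 1, 2 and 3. Over all genes these medians were 0.02, 0.21 and 0.12. The count of rises was 4 without PHx replicate 2 and 2 with the 6 libraries alone. Mre11a, which detects double-strand breaks, stood at 2.35, 2.80 and 2.08 in PHx and 1.31 to 1.55 in sham, and rose by 0.97 ± 0.18 (0.78 without PHx replicate 2). Of 16 p53 target genes 4 rose, Cdkn1a among them, against 12.5% of all genes. Gdf15, a stress-induced hormone, rose by 2.17 ± 0.49, with 2.79, 4.34 and 3.07 in PHx and 0.48, 1.82 and 1.41 in sham, a call lost with the 6 libraries alone.

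Some growth factor and early response genes rose in all 3 PHx livers. Of 12 genes of EGF and HGF family ligands and receptors 4 rose and 1 fell, against 12.5% and 5.87% of all genes, and PHx replicates 1, 2 and 3 were above all sham livers in 6, 8 and 8. Tgfa, a ligand of the EGF receptor, stood at 3.60, 3.37 and 3.98 in PHx and 2.37, 2.21 and 2.21 in sham and rose by 1.39 ± 0.18 (adjusted p = 1.2e-06, limma). Areg, a further ligand of that receptor, stood at 1.02, 0.90 and 1.36 in PHx and 0.18, 0.10 and 0.08 in sham and rose by 0.98 ± 0.22. For both ligands the 3 PHx livers were alike and apart from sham, unlike for Mcm5 and Mcm6. Hgf, the ligand of MET, rose by 1.00 ± 0.26, a call lost without PHx replicate 2 (0.80). Immediate early genes, the first transcription factors induced by such signals, rose in 11 of 19 and fell in none (median 1.10, and 9 rose without PHx replicate 2). Junb rose by 2.03 ± 0.39, with 4.95, 5.69 and 4.84 in PHx and 3.06 to 3.23 in sham, and Atf3 by 2.01 ± 0.39, with 2.83, 3.76 and 3.34 in PHx and 1.21 to 1.37 in sham. Myc, which promotes growth, was at 2.61, 3.92 and 2.63 in PHx and 1.21, 1.54 and 1.95 in sham. Its values did not overlap, but its change of 1.48 ± 0.64 did not pass the test (adjusted p = 0.10, limma).

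The IL-6, STAT3 and NF-kB feedback list rose in 11 of 24 genes and fell in 2. Socs3, the inhibitor that STAT3 induces against its own pathway, stood at 4.92, 5.85 and 4.98 in PHx and 1.41, 1.63 and 1.40 in sham. All PHx livers were more than 3 units above all sham livers, a rise of 3.77 ± 0.42 (adjusted p = 4.9e-08, limma). Nfkbiz, an NF-kB cofactor, rose by 1.45 ± 0.25 and Tnfrsf1a, the TNF receptor whose signal primes hepatocytes, by 0.93 ± 0.16. Il1rap, the accessory chain of the IL-1 receptor, fell by 1.01 ± 0.15. The activin and TGF-beta list rose in 7 of 25 and fell in none. Id3, an inhibitor of helix-loop-helix factors, stood at 5.70, 6.15 and 6.05 in PHx and 3.97, 4.25 and 4.04 in sham, a rise of 1.88 ± 0.29 in all PHx livers. Inhbb, a subunit of activin B, stood at 3.08, 1.10 and 2.88 in PHx and 0.21, 0.92 and 0.36 in sham. There PHx replicate 2 was little above sham, and the rise of 1.86 ± 0.38 was 2.48 without it, a call lost with the 6 libraries alone.

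Acute phase proteins, which the liver secretes under IL-6, showed the most frequent rise of the 56 lists examined, 19 of 25 genes, and none fell. The median was 1.72 beside 0.13 for all genes, and 20 rose without PHx replicate 2. Lcn2, which binds bacterial iron carriers, stood at 10.62, 9.41 and 10.79 in PHx and 1.37, 1.50 and 2.23 in sham. Saa2, a serum amyloid A protein, stood at 14.34, 14.62 and 14.46 in PHx and 5.87, 6.01 and 6.38 in sham. In both genes all 3 PHx livers were more than 7 units above all sham livers, PHx replicate 2 included. Lcn2 rose by 8.58 ± 0.62 (adjusted p = 4.2e-12, limma) and Saa2 by 8.39 ± 0.63 (adjusted p = 1.1e-11, limma). Saa1 rose by 7.35 ± 0.63, Orm2, an acid glycoprotein, by 4.24 ± 0.51 and the protease inhibitor Serpina3n by 3.05 ± 0.26. Reads of near-identical family members, such as Saa1 and Saa2, Orm2 and its paralogs, Hamp and Hamp2, and the Mup and H2 genes, may have been split by the authors' counting, so their single values are uncertain.

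Chemokines rose in 6 of 17 genes and fell in 1, against 12.5% and 5.87% of all genes. Ccl2, which attracts monocytes, stood at 3.30, 2.61 and 3.94 in PHx and 0.31, 0.31 and 0.43 in sham, and Cxcl1, which attracts neutrophils, at 6.49, 5.09 and 6.86 in PHx and 2.20, 2.63 and 2.61 in sham. In both, PHx replicate 2 was the lowest PHx liver, though well above sham. Ccl2 rose by 2.93 ± 0.49, Cxcl1 by 3.67 ± 0.68 and Ccl6 by 2.81 ± 0.32. Of 7 neutrophil markers tested, S100a8 and S100a9 rose (2.59 ± 0.79 and 2.68 ± 0.75) and none fell. The mean level of these 7 was 1.60, 1.01 and 1.93 in PHx and 0.31, 0.26 and 0.50 in sham, and ran from 0.00 to 2.93 over the 24 sham libraries of the time course. The summed linear value of the 10 neutrophil markers in the table was 28.7, 9.7 and 38.4 in PHx and 2.1, 1.7 and 3.1 in sham, and Camp was at 0 in all 6 libraries. S100a8 lost its call without PHx replicate 1 (2.48), PHx replicate 3 (2.06), sham replicate 1 (2.52) or sham replicate 2 (2.52), and S100a9 without PHx replicate 3 (2.38). The part of these cells in the rises of Lcn2 and the chemokines was not tested.

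Of 15 Kupffer cell and macrophage markers 1 rose and 2 fell, against 12.5% and 5.87% of all genes. Marco, a scavenger receptor of macrophages, stood at 7.57, 7.72 and 8.18 in PHx and 3.35, 3.95 and 3.72 in sham and rose by 4.15 ± 0.70 (adjusted p = 5.8e-05, limma). Clec4f, which is restricted to Kupffer cells, stood at 5.92, 6.61 and 6.65 in PHx and 6.66, 7.33 and 7.25 in sham and fell by 0.69 ± 0.23. Marco was thus high in every PHx liver while Clec4f was slightly lower. Clec4f lost its call without PHx replicate 1 (-0.45), sham replicate 2 (-0.56) or sham replicate 3 (-0.60) and with the 6 libraries alone. The summed linear value of the list was 535 to 784 in PHx and 381 to 502 in sham. The rise of Marco weighs heavily in these sums, and the median change of the list was 0.1, beside 0.13 for all genes. Monocyte markers summed to 637 to 988 in PHx and 399 to 432 in sham. Of 8 tested 1 rose, the same share as over all genes (12.5%). It was the fibronectin gene Fn1 (0.98 ± 0.15), which hepatocytes also make. Fn1 made up most of these sums, and the median change of the 8 genes was 0.45. Cholangiocyte markers summed to 62.1 to 74.4 in PHx and 26.6 to 45.4 in sham, and of 7 tested Sox9 rose (1.33 ± 0.39). Sox9 lost its call without PHx replicate 1 or PHx replicate 3. Markers of T, NK and B cells summed to 1.7 to 5.9 in PHx and 8.8 to 14.0 in sham, and 2 of 8 fell, Cd4 (-0.78 ± 0.17) among them. Of 19 sinusoidal endothelial markers 3 fell and none rose, and of 23 stellate cell and matrix genes 5 rose, with the basement membrane collagen Col4a1 at 1.51 ± 0.26, and 2 fell. Among 7 erythroid markers 2 fell, Car1 by 1.65 ± 0.26. No gene of 13 tested of the pancreatic acinar list was called, and 6 of them were at 0 in all 6 libraries. The calls in all of these marker lists stand against 12.5% of all genes rising and 5.87% falling.

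The machinery for making and folding secreted proteins was raised. Of 24 genes of the unfolded protein response and ER folding 15 rose and none fell (median 0.90, and 13 rose with median-ratio scaling). Xbp1, the transcription factor of this response, stood at 7.78, 7.86 and 7.84 in PHx and 6.73, 6.68 and 6.57 in sham and rose by 1.17 ± 0.26. The co-chaperone Dnajb11 rose by 1.28 ± 0.17 and the chaperone Calr by 1.15 ± 0.16. Tubulin, actin and keratin genes rose in 16 of 28 and fell in none (15 with median-ratio scaling). Krt18, a keratin of hepatocytes and bile duct cells, stood at 10.06, 9.69 and 9.88 in PHx and 6.78, 7.22 and 6.73 in sham and rose by 2.96 ± 0.32 (adjusted p = 3.5e-08, limma). Its partner Krt8 rose by 2.40 ± 0.34, the tropomyosin Tpm4 by 1.65 ± 0.16 and the actin-severing Cfl1 by 0.92 ± 0.12. In all of these the 3 PHx livers were alike, and no PHx value overlapped with sham. Proteasome subunits rose in 16 of 31 and cytosolic ribosomal proteins in 15 of 34, with none falling. These counts were 7 and 5 with median-ratio scaling, and the changes were small, Psmd14 at 0.82 ± 0.14 and Rpl30 at 0.60 ± 0.12.

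**Figure D3:**
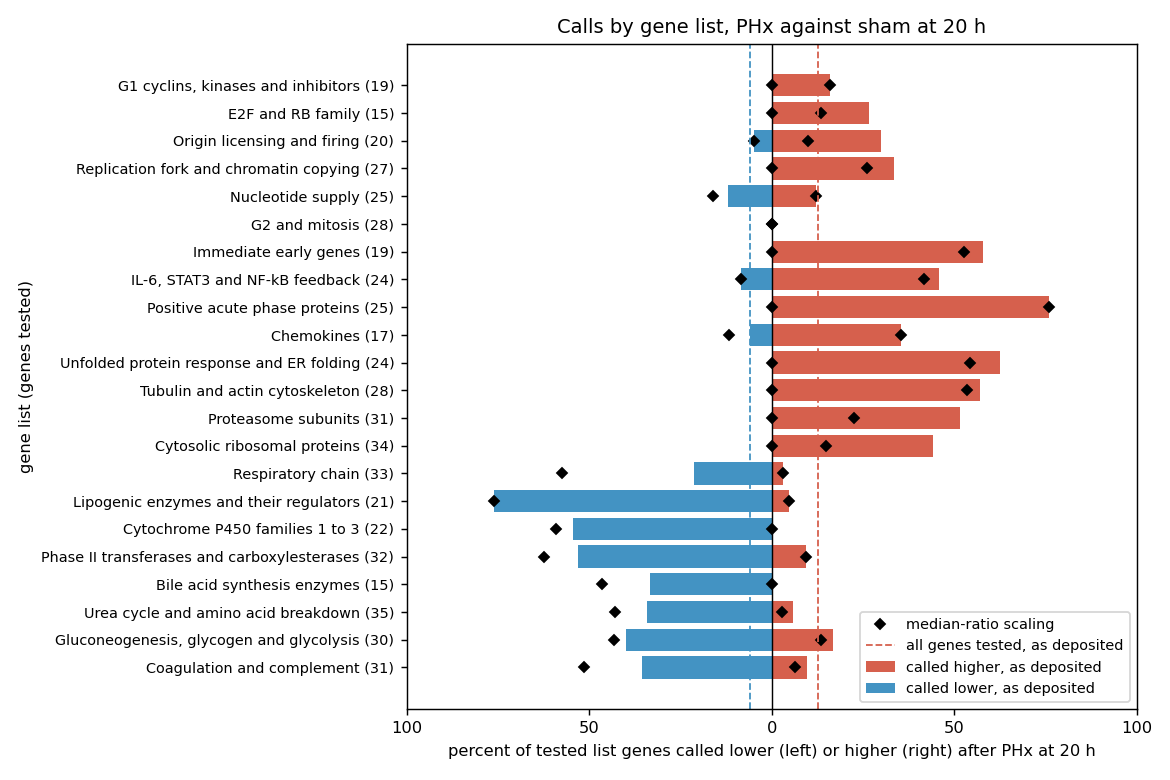
Share of tested genes called higher (right) and lower (left) at 20 h in 22 lists, in percent. Bars use values as deposited, diamonds the median-ratio scaling, and dashed lines mark the shares of all genes (12.5 and 5.87%). Acute phase genes have the longest bar to the right and lipogenic genes the longest to the left.

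Fatty acid and triglyceride synthesis was the most uniformly lowered part of metabolism. Of 21 lipogenic enzymes and regulators 16 fell and 1 rose, with a median of -2.24, and 15 fell without PHx replicate 2. Thrsp, a lipogenic protein under thyroid hormone and carbohydrate control, stood at 7.87, 7.93 and 7.11 in PHx and 12.26, 12.69 and 12.84 in sham. Pklr, the liver pyruvate kinase, stood at 4.34, 5.20 and 3.42 in PHx and 7.33, 7.87 and 7.56 in sham. Every PHx liver, PHx replicate 2 included, was more than 2 units below every sham liver in both genes. Thrsp fell by 4.96 ± 0.44 (adjusted p = 5.8e-10, limma) and Pklr by 3.27 ± 0.31 (adjusted p = 1.5e-09, limma). Acss2, which makes acetyl-CoA from acetate, fell by 2.79 ± 0.29 and Dgat2, the last step of triglyceride synthesis, by 1.36 ± 0.14. Among elongases and desaturases 5 of 13 fell and none rose, with the desaturase Scd1 at -2.46 ± 0.32 and the elongase Elovl6 at -2.55 ± 0.38. Of 26 genes of fatty acid oxidation 4 rose and 2 fell, against 12.5% and 5.87% of all genes. The omega-hydroxylase Cyp4a14 rose by 3.02 ± 0.83. Among apolipoproteins and assembly genes 2 of 19 rose and 6 fell, so that rises were no more frequent than over all genes. Apoa4 stood at 12.23, 11.28 and 12.46 in PHx and 8.28, 8.47 and 7.91 in sham, a rise of 3.77 ± 0.47, and Apoc2, the cofactor of lipoprotein lipase, rose by 2.38 ± 0.31. Apoe fell by 0.66 ± 0.10, a call lost with quantile normalization (-0.16) and with the 6 libraries alone.

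Enzymes of drug and steroid metabolism fell. Of 22 P450 genes of families 1 to 3, 12 fell and none rose, with a median of -0.91. Of 32 phase II transferases and carboxylesterases 17 fell and 3 rose (median -0.75, 20 fell with median-ratio scaling). Cyp2f2, a P450 of periportal hepatocytes, stood at 7.13, 7.37 and 6.89 in PHx and 8.50, 8.72 and 8.70 in sham and fell by 1.51 ± 0.27. Cyp1a2, a P450 of pericentral hepatocytes, stood at 6.48, 7.73 and 5.73 in PHx and 8.63, 8.37 and 8.85 in sham and fell by 1.97 ± 0.45. PHx replicate 2 was the highest of the PHx livers in both, still below sham, and Cyp1a2 lost its call with the 6 libraries alone. The carboxylesterases Ces1e and Ces3b fell by 2.19 ± 0.24 and 1.67 ± 0.19, and the glucuronosyltransferase Ugt2b1 by 1.93 ± 0.27.

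Amino acid, glucose and pyrimidine breakdown also fell in part. In the urea cycle and amino acid list 12 of 35 fell and 2 rose. PHx replicate 2 was the lowest there, with medians over the sham mean of -0.14, -0.90 and -0.13 in PHx replicates 1, 2 and 3, whereas in bile acid synthesis these were -0.90, -0.22 and -0.74. In the list of gluconeogenesis, glycogen and glycolysis 12 of 30 fell and 5 rose. Otc, of the urea cycle, fell by 1.22 ± 0.17, the liver glutaminase Gls2 by 1.54 ± 0.20, the serine dehydratase Sds by 2.14 ± 0.35 and Haao, of tryptophan breakdown, by 1.83 ± 0.23. The glycogen phosphorylase Pygl stood at 5.97, 6.46 and 5.89 in PHx and 7.88, 8.28 and 8.22 in sham and fell by 2.02 ± 0.21, while the lactate dehydrogenase subunit Ldha rose by 1.33 ± 0.20. Upp2, a uridine phosphorylase, stood at 3.04, 3.12 and 3.25 in PHx and 8.75, 7.27 and 8.50 in sham. Its 3 PHx values were almost equal and more than 4 units below sham, a fall of 5.04 ± 0.56 (adjusted p = 4.0e-08, limma), and 5 of 14 genes of pyrimidine breakdown and salvage fell. The respiratory chain fell in 7 of 33 genes, Sdhb among them (-0.76 ± 0.13), and rose in 1, and 19 fell with median-ratio scaling.

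Plasma protein genes divided. Coagulation and complement genes fell in 11 of 31 and rose in 3. The albumin, carrier and alpha-1 antitrypsin list fell in 7 of 20 and rose in 3. Over all genes 5.87% fell and 12.5% rose. The thyroxine carrier Ttr stood at 11.39, 11.64 and 11.02 in PHx and 12.39, 12.35 and 12.27 in sham and fell by 0.99 ± 0.17. Hamp2, a paralog of hepcidin, stood at 6.94, 6.51 and 5.71 in PHx and 10.19, 11.63 and 11.11 in sham and fell by 4.59 ± 0.66. Hepcidin itself (Hamp), the iron hormone, was at 13.83, 12.29 and 13.53 in PHx and 12.51, 12.59 and 12.61 in sham. PHx replicate 2 lay below sham and the other PHx livers above it, and Hamp did not pass the test (0.64 ± 0.46, adjusted p = 0.36, limma). Of 24 hepatocyte transcription factors and nuclear receptors 4 rose and 2 fell, against 12.5% and 5.87% of all genes. Cebpa, which maintains the differentiated hepatocyte, stood at 4.47, 5.27 and 5.03 in PHx and 6.35, 6.49 and 6.18 in sham and fell by 1.42 ± 0.22. Hnf4a, the central factor of hepatocyte identity, was at 6.61 to 6.73 in PHx and 6.46 to 6.49 in sham and did not pass the test (0.18 ± 0.12).

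Bile acid genes show the separation of PHx replicate 2 in metabolism. Of 15 synthesis enzymes 5 fell and none rose, and 8 fell without PHx replicate 2. Cyp7a1, the rate-limiting enzyme of the classic pathway, stood at 0.07, 4.31 and 0.16 in PHx and 5.53, 4.61 and 5.68 in sham. Cyp8b1, which makes cholic acid precursors, stood at 0.21, 4.16 and 0.57 in PHx and 6.40, 6.43 and 6.96 in sham. PHx replicates 1 and 3 had almost no transcript of either, whereas PHx replicate 2 was just below the lowest sham liver for Cyp7a1 and more than 2 units below for Cyp8b1. Cyp7a1 fell by 3.76 ± 0.89 (adjusted p = 0.0026, limma) and Cyp8b1 by 4.95 ± 0.80 (adjusted p = 2.7e-05, limma), and the changes were -5.16 and -6.21 without PHx replicate 2. Cyp27a1, of the alternative pathway, stood at 7.21, 7.03 and 6.83 in PHx and 8.00, 8.24 and 8.24 in sham, and Slc27a5, which activates bile acids for conjugation, at 6.33, 6.32 and 6.08 in PHx and 7.33, 7.38 and 7.55 in sham. These fell alike in all 3 PHx livers, by 1.14 ± 0.18 and 1.17 ± 0.13. Nr0b2, the repressor SHP, stood at 5.66, 5.23 and 5.29 in PHx and 3.47, 3.80 and 2.37 in sham, high in all 3 PHx livers. It rose by 2.18 ± 0.58, a call lost without sham replicate 3 (1.75), and its part in the level of Cyp7a1 was not tested. Among transporters 3 of 16 rose and 3 fell, against 12.5% and 5.87% of all genes. The uptake carrier Slc10a1 fell by 1.32 ± 0.24 and Abcb4, the phospholipid exporter of bile, rose by 2.15 ± 0.41. Slc51b, a subunit of the carrier for bile acid export into blood, stood at 8.41, 4.31 and 8.02 in PHx and 1.80, 3.94 and 2.13 in sham. It rose by 4.29 ± 1.06 (5.60 without PHx replicate 2), and PHx replicate 2 was close to the highest sham liver. Cyp7a1 and Slc51b lost their calls with the 6 libraries alone.

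The same division of the PHx livers appeared in genes outside bile acid metabolism. Hsd3b5, a male-specific steroid enzyme of mouse liver, stood at 0.58, 5.92 and 0.78 in PHx and 7.36, 7.50 and 5.79 in sham, and Serpina6, the corticosteroid carrier, at 1.42, 5.67 and 1.01 in PHx and 7.34, 6.98 and 7.13 in sham. Igfals, which holds IGF1 in serum, stood at 1.64, 4.35 and 1.69 in PHx and 4.37, 4.43 and 4.43 in sham. PHx replicate 2 was within or near the sham range in Hsd3b5 and Igfals, and PHx replicates 1 and 3 were more than 2 units below it in all 3 genes. Hsd3b5 fell by 4.45 ± 1.18, Serpina6 by 4.45 ± 0.78, Igfals by 1.85 ± 0.65, the male-biased Keg1 by 2.87 ± 0.71 and the growth hormone receptor Ghr by 1.41 ± 0.29. Without PHx replicate 2 these were -6.20, -5.93, -2.75, -3.79 and -1.88. Igfals lost its call when any single library other than PHx replicate 2 was left out (-1.40 to -1.87), Hsd3b5 without PHx replicate 1 (-3.53) or PHx replicate 3 (-3.63), and all 5 lost it with the 6 libraries alone. In the opposite direction, the lipid droplet gene Cidec stood at 6.24, 2.49 and 6.30 in PHx and 1.23, 0.54 and 1.16 in sham. The metallothionein Mt2, which binds zinc and other metals, stood at 10.34, 6.19 and 10.38 in PHx and 2.95, 2.97 and 4.44 in sham. Here PHx replicate 2 was above sham but about 4 units below the other PHx livers. Cidec rose by 4.03 ± 1.01, Mt2 by 5.52 ± 1.06 and Mt1 by 4.20 ± 0.85, and by 5.29, 6.91 and 5.41 without PHx replicate 2. Cidec and Mt1 lost their calls with the 6 libraries alone. Of the 42 genes in which PHx replicate 2 was at least 2 units below both other PHx livers, its value was nearer to the sham mean than the mean of the other PHx livers was in 30. Of the 126 in which it was as far above, it was nearer in 42, and in none of the 14 from the G2 and mitosis list.

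**Figure D4:**
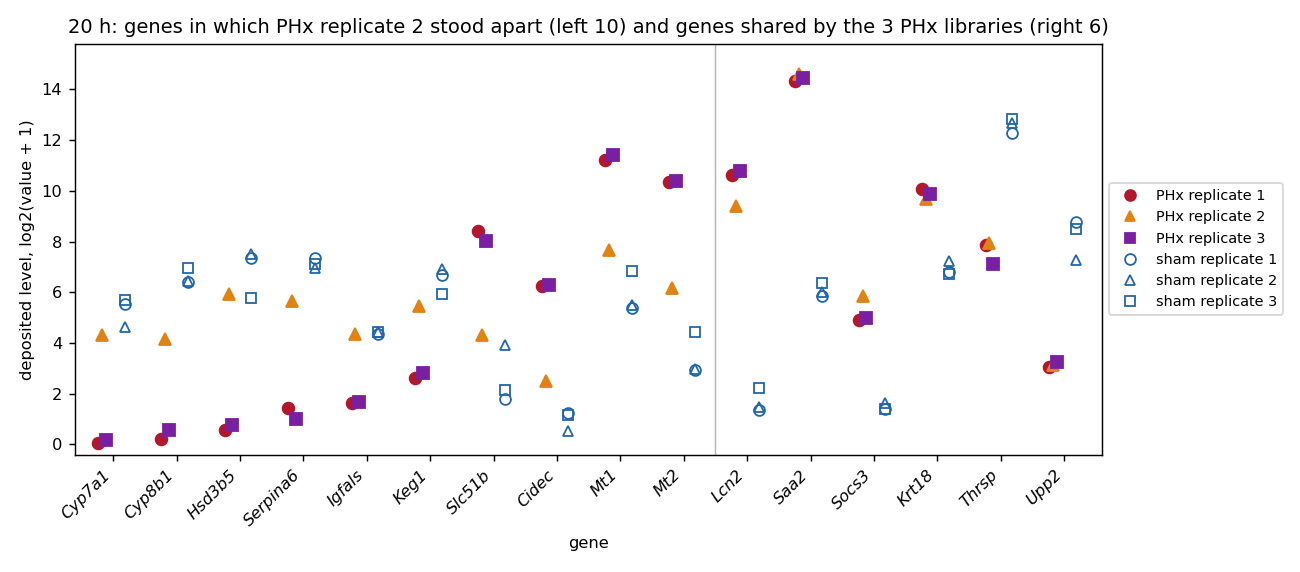
Log2 level (value + 1) of 16 genes, picked for the plot after their values were seen, in each of the 3 PHx and 3 sham libraries of 20 h. Each symbol is 1 library. In 10 genes, such as Cyp8b1 (0.21, 4.16 and 0.57 in PHx) and Mt2 (10.34, 6.19 and 10.38), PHx replicate 2 lies apart from the other PHx libraries, and in 6, such as Saa2 and Thrsp, the 3 PHx libraries lie together.

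Across the time course, PHx replicates 1 and 3 of 20 h resembled single livers of other times. With each gene centred on its mean over the 48 libraries, PHx replicate 1 correlated across genes best with PHx replicate 3 of 20 h (0.68), then with PHx replicate 2 of 16 h (0.63) and PHx replicate 2 of 28 h (0.52). The next library was at 0.31. PHx replicate 3 had the same order, with 0.57 and 0.49, and its next library was at 0.32. PHx replicate 2 of 20 h correlated best with the 3 PHx livers of 24 h (0.40, 0.37 and 0.33), followed without a gap by PHx replicate 1 of 28 h (0.32). Genes are not independent replicates, so these values describe likeness only, and all profiles share the centring. The PHx livers of 16 h had Cyp7a1 at 5.36, 0.08 and 4.43 and those of 28 h at 2.66, 0.00 and 2.66. Slc51b was at 3.66, 9.14 and 3.62 at 16 h and 4.92, 7.92 and 3.83 at 28 h. In both genes replicate 2 of 16 h and of 28 h had the levels of PHx replicates 1 and 3 of 20 h. Cidec was at 1.98, 6.30 and 1.42 at 16 h and 1.79, 7.46 and 2.40 at 28 h, and Hsd3b5 at 6.62, 0.64 and 5.32 at 16 h and 6.74, 0.58 and 7.33 at 28 h, with the same liver apart each time. For some genes such levels were not particular to these livers. Cyp7a1 was also low in all 3 PHx livers of 4 h (0.81, 0.70 and 0.38) and 8 h (0.26, 1.04 and 0.26). Cidec was high in all 3 at 8 h (5.74, 5.77 and 6.30) and 12 h (5.91, 6.33 and 4.99), and Slc51b in PHx replicate 1 of 4 h (7.29). Cyp8b1 was below 1 only in PHx replicates 1 and 3 of 20 h (0.21 and 0.57) and replicate 2 of 16 h (0.15) and 28 h (0.25). Hsd3b5 was below 1 in the same livers only, and its next lowest value was 1.24, in PHx replicate 3 of 8 h. At 28 h PHx replicate 2 was also low in Mki67 (4.19, 0.11 and 2.69) and Cdk1 (6.03, 0.04 and 4.16). At 16 h Mki67 was low in all 3 PHx livers (0.61, 0.34 and 0.64). Saa2 was above 12 in every PHx liver from 4 to 32 h. The acute phase list still differed in size between the PHx livers of 20 h, with medians over the sham mean of 2.18, 1.35 and 1.96 and Lcn2 lowest in PHx replicate 2. Replicate numbers have no shared origin across times in the labels, and what these livers have in common beyond their values was not tested.

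**Figure D5:**
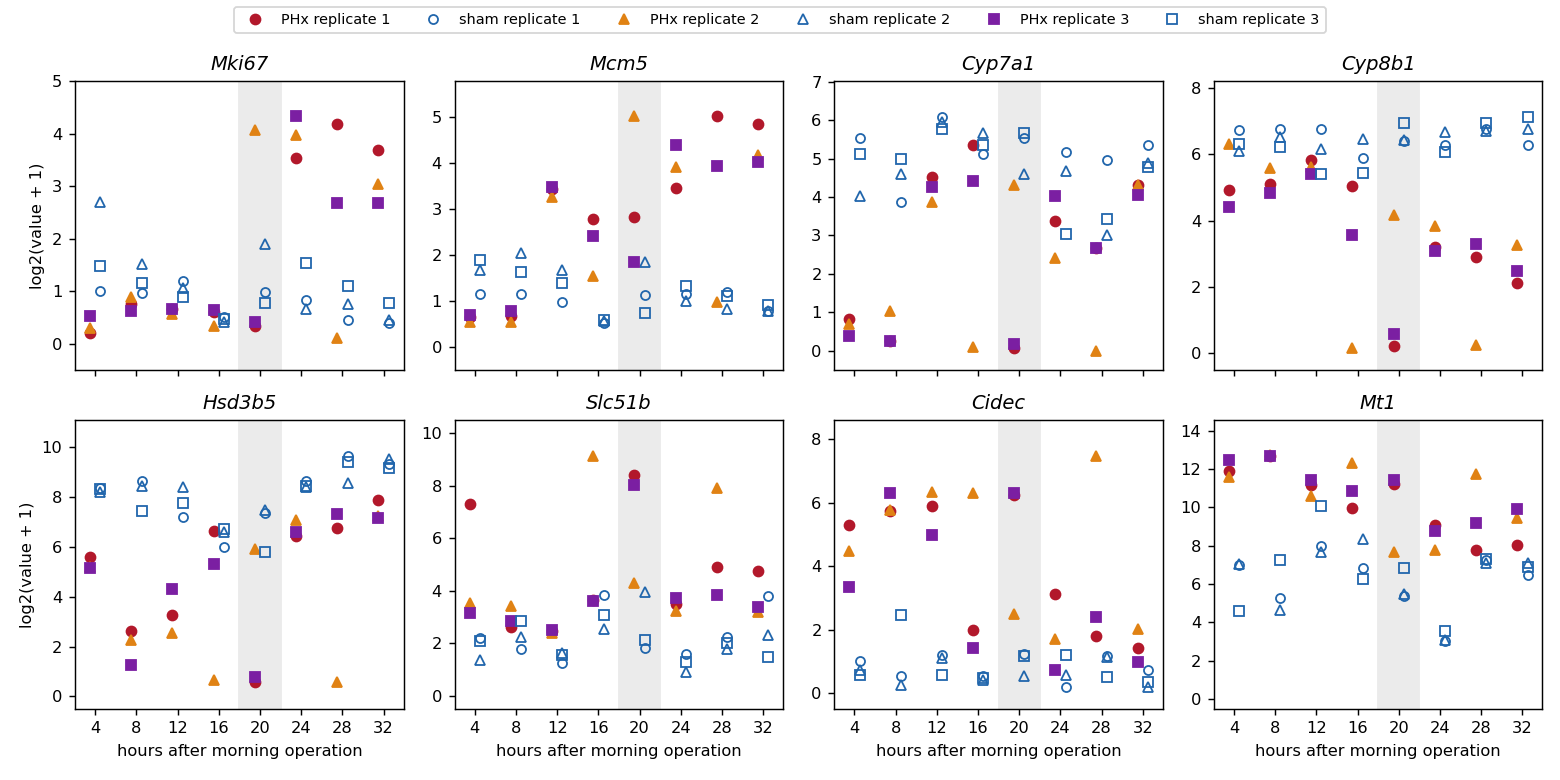
Log2 level (value + 1) of 8 genes in every library from 4 to 32 h after the operation, PHx and sham. Each symbol is 1 library. PHx replicates 1 and 3 of 20 h, replicate 2 of 16 h and replicate 2 of 28 h have Cyp7a1, Cyp8b1 and Hsd3b5 below 1 and high Slc51b and Cidec.

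The 20 h response was set against those of the neighbouring times, each with its own sham livers. No gene was called for a difference from the 16 h response (limma, 623 genes at an unadjusted p under 0.05). For the difference from 24 h 1 gene of 12957 (0.00772%) was called, the predicted gene Gm9174, with 1081 genes at an unadjusted p under 0.05. Without PHx replicate 2 of 20 h, 65 genes were called for the difference from 24 h, 12 with a higher and 53 with a lower response at 20 h. The lower ones include 6 cell cycle genes, chosen after their values were seen: Rrm2 and, of the G2 and mitosis list, Ccna2, Cenpe, Cenpf, Kif11 and Mki67. In single values, the PHx livers of 24 h had Mki67 at 3.54, 3.97 and 4.34, Mcm6 at 4.12, 4.74 and 5.20 and Ccnd1 at 5.54, 4.82 and 5.12. PHx replicate 2 of 20 h (4.08, 5.40 and 5.33) lay within or above these ranges. It lay below the 24 h range in Cdk1 (4.31 against 5.47, 5.94 and 6.14), Ccnb1, the cyclin of mitosis (1.81 against 2.46, 2.17 and 2.39), and Plk1 (2.16 against 2.20, 2.53 and 2.71). PHx replicates 1 and 3 reached them in Ccnd1 but not in Mki67 or Mcm6. The 20 h and 24 h livers carry different library ID series, so time and series cannot be told apart in this comparison.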

How the data were processed

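PolyA RNA of whole liver was sequenced with SMART-RNAseq on a NovaSeq, per the labels. Per the submitters' processing notes, fastp 0.20.0 and HISAT2 2.1.0 were used, and the builds mm8 and mm9 are named without roles. The read counter and the annotation: not given in the sources used here. What the authors deposited is log2(value + 1), where the value has 2 decimals and, per the file headers, no stated unit. Linear sums were 0.937 to 1.20 M per library, and depth is unknown. Genes carry the file's names, 29 those of the reference table.

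Deposited log2 values went into limma 3.58.1 (R 4.3.3; eBayes, trended, two-sided; Benjamini-Hochberg over 12957 genes; 32 residual degrees of freedom). The code was tested on simulated data. The 56 gene lists, the members and the rule for named genes (fixed genes, up to 4 genes per list by smallest adjusted p, and the largest changes) were chosen with earlier results of these data known. Alternatives were other scalings, filters, pseudocounts, sets of libraries, a replicate block and leaving out each library. Leaving out PHx replicate 2 of 16 h was chosen after seeing the data. Python 3.11.15, pandas 2.3.3 and matplotlib 3.10.9 made tables and plots.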

Additional observations from a re-analysis of the deposited data

Results flagged for a closer look

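Gm9174, a predicted gene of unknown role, was the only gene called for a difference between the 20 h and the 24 h response in the fit of 48 libraries (20 h minus 24 h, -2.37 ± 0.19, limma). It was listed at 0 in all PHx and sham libraries of 16 and 20 h and in the sham libraries of 24 h, and at 2.50, 2.32 and 2.30 in the PHx libraries of 24 h. The 24 h libraries carry another ID series than those of 16 and 20 h, and the part of the series was not tested.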

How the results depend on the processing

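A set of 121 genes, most of them named above, was followed through the alternatives. It leaves out some named genes, Gm9174, Cenpe, Cenpf, Kif11 and mt-Atp8 among them. Of the 121, 106 were called, 68 of these in all 17 alternatives. In all alternatives that neither left out a library nor used 6 libraries alone, 98 were called. None of the 106 changed sign. With the 6 libraries of 20 h alone, 31 of the 106 lost their call, and 1222 genes were called, 838 higher and 384 lower, with 6 cell cycle list genes higher. The higher calls were 927 with median-ratio scaling and 965 with quantile normalization, with 16 cell cycle list genes higher under the latter, so that 45.3 and 46.8% of calls were higher against 68.0% as deposited. Leaving out each library of 20 h gave 1568 to 2213 calls (fewest without PHx replicate 3), 1021 to 1346 higher, 493 to 935 lower, and 7 (without PHx replicate 2) to 29 cell cycle list genes higher.

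Genes called for the difference from 16 h numbered 1 with the 24 libraries of 1 ID series, 1 without PHx replicate 2 of 16 h, and 0 to 1 when a library of 20 h was left out. For 24 h there were 2 with 42 libraries, 0 with a value of at least 5 in 3 libraries, and 1 to 65 when a library was left out. Rrm2 was at -0.064 with median-ratio scaling, -0.13 with a pseudocount of 0.1 and -0.06 with quantile normalization. Over left-out libraries, changes ran from -0.36 to 1.42 for Ccne2, -0.86 to 1.00 for E2f8, -0.067 to 1.06 for Cdc6, -1.08 to 0.72 for Rrm2, -0.51 to 0.99 for Ccna2, -0.84 to 1.03 for Mki67, -0.44 to 1.47 for Top2a, -0.20 to 0.81 for Foxm1 and -0.094 to 0.86 for Plk1, the lowest always without PHx replicate 2. The causes were not tested.

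With the replicate number as a replicate block, limma called 2409 genes. The deviations of same-numbered PHx and sham libraries of 20 h correlated at -0.0023, 0.21 and 0.13 for numbers 1, 2 and 3. Not every pair was above 0.1, and the labels name no shared animal, batch or day, so the numbers were not treated as pairs. Whether numbers 2 or 3 mark a shared source was not tested. The unknown depth limits what low values can show.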

Other observations

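Of 31 interferon response and MHC class I genes, 4 fell and 0 rose, against 5.87% and 12.5% of all genes. B2m, the light chain of class I molecules, stood at 9.56, 9.81 and 9.57 in PHx and 10.17, 10.11 and 10.25 in sham and fell by 0.53 ± 0.14 (limma). H2-K1, a heavy chain, fell by 0.40 ± 0.11, a call lost without sham replicate 3 and with the 6 libraries alone. Clock and clock output genes fell in 4 of 19 and rose in 1, beside the same shares of all genes. The repressor Cry2 stood at 2.19, 2.19 and 1.90 in PHx and 2.70, 2.63 and 2.95 in sham and fell by 0.67 ± 0.18, a call lost without PHx replicate 3 or sham replicate 3. Dbp, a clock output factor, fell by 1.55 ± 0.53, a call lost without PHx replicate 1 or 3 or sham replicate 1 or 3. Both lost their call with the 6 libraries alone.

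Heat shock and cold-inducible genes rose in 2 and fell in 2 of 20, against 12.5% and 5.87% of all genes. Rbm3, induced by mild cold, stood at 8.01, 7.13 and 7.69 in PHx and 5.95, 5.74 and 6.02 in sham and rose by 1.71 ± 0.39. The chaperone gene Hspa1b stood at 1.88, 3.53 and 1.69 in PHx and 4.52, 4.89 and 3.86 in sham and fell by 2.06 ± 0.52. The major urinary protein gene Mup3 fell by 0.79 ± 0.14, a call lost with quantile normalization and with the 6 libraries alone.

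Gm10443, a predicted gene among the largest falls, was listed at 0 in all 3 PHx libraries and at 7.34, 6.49 and 7.08 in sham. Its level over the 24 sham libraries ran from 0.00 to 9.22, and its call was lost without sham replicate 1 or sham replicate 3. The mitochondrial gene mt-Atp8, chosen after its values were seen, was listed at 0 in replicate 2 of both groups and at 14.21 and 13.94 in the other PHx and 14.53 and 14.30 in the other sham libraries.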
